A study of Mus musculus with 16 samples.

Results

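Prss53 and Pycard are protein-coding genes on the same strand of mouse chromosome 7 whose transcripts were more abundant in lactating mammary glands of metformin-treated mice. The 9 genes described here are that pair and 7 annotated neighbours (Zfp646, Vkorc1, Bckdk, Kat8, Prss8, Prss36 and Trim72), out of 22196 genes in the files. They were chosen by position, near the stretch chr7:127800000-128200000 of GRCm38, to ask whether neighbours share the metformin rise of the pair. Since the metformin difference of Prss53 and Pycard chose the region, it is given below as a description, without a test, and the tests concern the neighbours. All 9 genes passed the filter on low counts.

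RNA was sequenced from whole inguinal mammary glands, in mid-lactation by the series' title and with an age label of postnatal day 16. The 4 groups of 4 libraries were NCD control, NCD metformin, HFD control and HFD metformin, where HFD is a high fat diet fed in lactation and NCD is not spelled out in the labels. Metformin is a drug that lowers blood glucose. No strain, allele, transgene or dose enters the group definitions used here. Nothing in the labels says that each library is a different animal, so the p-values reflect the spread among these libraries, part of which could be technical.

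Libraries held 8649316 to 39156617 counts over genes, with HFD control 4 the shallowest. Luminal and milk protein markers summed to between 356200 and 568290 CPM (counts scaled to a common library size) in every library, as the tissue label implies. One library, NCD control 3, stood apart with 4194 CPM of skeletal muscle markers, against 2.148 to 159.2 CPM in the others.

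Pycard encodes ASC, the adaptor that links inflammasome sensors to caspase-1 in macrophages and other cells, and caspase-1 then matures interleukin-1β. Prss53, Prss8 and Prss36 encode trypsin-like serine proteases, of which Prss8 (prostasin) is anchored to epithelial membranes and activates the epithelial sodium channel. The remaining neighbours have unrelated roles. Vkorc1 recycles vitamin K for protein carboxylation and is the target of warfarin, Bckdk phosphorylates and inhibits the branched-chain ketoacid dehydrogenase, Kat8 (MOF) acetylates histone H4, Trim72 (MG53) reseals muscle membranes, and Zfp646 encodes a zinc finger protein.

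By start coordinate the genes lie in the order Zfp646, Prss53, Vkorc1, Bckdk, Kat8, Prss8, Prss36, Pycard and Trim72. Prss53 spans chr7:127885841-127890970 and Pycard spans chr7:127989708-127993867, both on the minus strand. Their start sites are 102897 bases apart. Closest to the start of Prss53 is that of Vkorc1, at 4647 bases, and closest to that of Pycard is Trim72, at 10082 bases. Prss53 overlaps the end of Zfp646 by 156 bases on the opposite strand, and Kat8 overlaps Prss8 by 122 bases. These are overlaps of whole gene spans, whereas the counts refer to coding sequence. How the counting treated strand is not given in the sources used here. Of the coding sequence, read on both strands, none of the 1655 words of 31 bases in Prss53 and none of the 552 in Pycard occurred in another gene, and the same held for Zfp646, Kat8 and Prss8. Vkorc1 shared 329 of its 481 words with Gm21974, a read-through of Prss53 and Vkorc1 that held 0 counts in all 16 libraries.

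RefSeq promoter entries on GRCm38.p6 were found for 7 of the 9 genes, all but Prss8 and Zfp646. The 250 bases before the start are shown for Prss53 and Pycard, the pair whose transcripts moved together, and for Vkorc1, the neighbour whose start site is nearest to that of Prss53. All 3 read 5′ to 3′ on the minus strand and end at the base before the start site, and capitals mark the motif matches described after them. The intervals are chr7:127890971-127891220 for Prss53, chr7:127993868-127994117 for Pycard and chr7:127895618-127895867 for Vkorc1.
Prss53: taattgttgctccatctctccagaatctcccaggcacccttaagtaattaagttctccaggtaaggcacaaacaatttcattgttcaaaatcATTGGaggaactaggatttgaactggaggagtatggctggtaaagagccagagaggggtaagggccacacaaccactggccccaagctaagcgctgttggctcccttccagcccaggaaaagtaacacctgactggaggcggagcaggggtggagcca
Pycard: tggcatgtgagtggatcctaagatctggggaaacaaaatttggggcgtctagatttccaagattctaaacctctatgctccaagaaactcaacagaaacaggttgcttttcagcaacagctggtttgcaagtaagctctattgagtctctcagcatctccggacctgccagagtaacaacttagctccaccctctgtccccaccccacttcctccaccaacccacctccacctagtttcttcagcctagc
Vkorc1: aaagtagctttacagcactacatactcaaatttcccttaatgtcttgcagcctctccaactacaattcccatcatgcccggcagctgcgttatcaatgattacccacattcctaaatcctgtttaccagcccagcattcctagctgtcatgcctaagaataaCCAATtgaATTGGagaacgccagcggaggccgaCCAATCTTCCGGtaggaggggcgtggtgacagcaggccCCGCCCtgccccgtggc

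Both strands of these windows were searched for 8 motifs, which were CACGTG (E-box), GGGCGG (GC box), CCAAT (the site of the factor NF-Y), TATAAA (the core of TATA promoters), TGACTCA (AP-1), TTCNNNGAA (STAT), TGACNNNGC (antioxidant response element core) and CCGGAAG (ETS). The Prss53 window held only CCAAT, on the opposite strand, beginning 158 bases before the start. No motif of the 8 was in the Pycard window. In the Vkorc1 window there were 3 matches to CCAAT, a GC box and an ETS match that directly follows a CCAAT. Matches to CCAAT occurred in 33.8% of 32851 promoter entries, GC boxes in 32.7% and ETS matches in 6.91%. Thus no match among the 8 was held by both Prss53 and Pycard. These are matches of letters in a short window, not tested sites.

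In each of the 4 NCD control libraries Prss53 was low, at 2.68, 2.96, 2.95 and 3.40 CPM. NCD metformin libraries held 12.3, 13.5, 13.7 and 13.8 CPM. On HFD the control values were 3.08, 3.75, 3.19 and 1.67 CPM, and those with metformin were 9.15, 13.2, 10.2 and 6.69 CPM. All 8 metformin libraries lay above all 8 control libraries, where 8.73% of all genes had higher groups without overlap on NCD and 3.72% on HFD. The lowest value belonged to HFD control 4, which held 15 Prss53 counts. The fitted log2 fold change was 2.15 (SE 0.197) on NCD, a 4.44-fold difference. On HFD it was 1.70 (SE 0.201), or 3.24-fold.

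Pycard measured 4.59, 7.42, 5.21 and 4.92 CPM in NCD control libraries and 13.6, 18.5, 10.3 and 18.2 CPM in those with metformin. In HFD control it measured 4.37, 4.50, 3.92 and 2.23 CPM, and in HFD metformin 10.2, 12.6, 15.6 and 8.72 CPM. For Pycard too no control library reached the lowest metformin library. The log2 fold change was 1.46 (SE 0.231) on NCD and 1.60 (SE 0.242) on HFD. HFD control 4 held 20 Pycard counts, and without that library the HFD value was 1.46 for Pycard and 1.55 for Prss53. Whole gland RNA cannot tell more transcript per cell from more cells of a type that carries it.

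**Figure D1:**
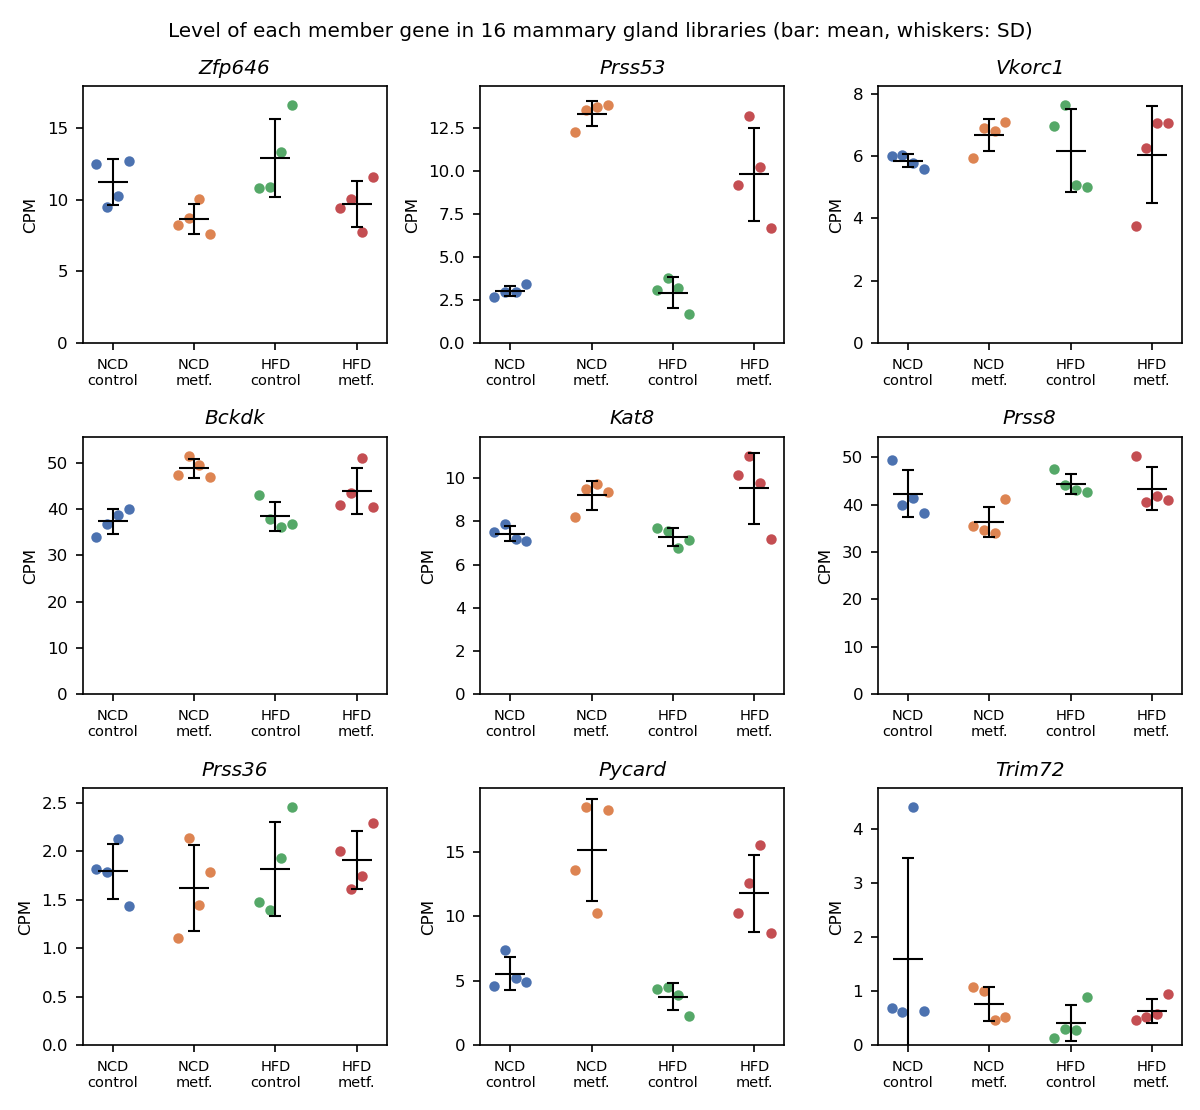
Level of each gene in CPM (vertical axes, each starting at 0) in the 4 groups, with 1 point per library, a bar at the mean and whiskers of 1 SD (for Trim72 in NCD control the lower whisker runs below 0 and is not drawn in full). Prss53 and Pycard separate metformin from control libraries on both diets, Bckdk and Kat8 separate them on NCD, and the other 5 genes overlap.

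Sample numbers in the titles leave a gap between 10 and 14. Since every metformin library lay above every control library for both genes, any part of the libraries must show the split. The ranges within each run of numbers are therefore a description only, and an effect of the numbering was not tested with them. Among libraries numbered 10 and below, Prss53 ranged from 2.68 to 3.08 CPM in 4 controls and from 9.15 to 13.5 CPM in 3 metformin libraries. Among those numbered 14 and above, it ranged from 1.67 to 3.75 CPM in 4 controls and from 6.69 to 13.8 CPM in 5 metformin libraries. Pycard ranged from 4.37 to 7.42 CPM against 10.2 to 18.5 CPM in the low numbers, and from 2.23 to 4.92 CPM against 8.72 to 18.2 CPM in the high numbers. What the numbers stand for is not stated in the labels.

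For Prss53, 95.6% of the estimated counts belonged to the longer of 2 transcripts (coding length 1659 against 1449 bases), and the shorter exceeded 1 count in 5 of 16 libraries. All Pycard counts belonged to the 582-base transcript, and the one of 456 bases was listed at 0 in every library. The difference in both genes was therefore carried by their leading coding transcript.

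Of the neighbours, Bckdk, the inhibitory kinase of branched-chain ketoacid oxidation, rose on NCD and Kat8 and Bckdk rose when the diets were averaged, with log2 fold changes from 0.29 to 0.39. Zfp646 fell when the diets were averaged. Vkorc1, Prss8, Prss36 and Trim72 did not pass the test in any contrast. On NCD, 1 of the 7 neighbours was called at an adjusted p under 0.05 (edgeR quasi-likelihood test, Benjamini-Hochberg over 12506 genes). It was higher, as were 4.01% of all genes, while 6.03% were lower. On HFD none of the 7 was called, where 0.168% of all genes were. On HFD 2 of the 7, Kat8 and Zfp646, had an unadjusted p under 0.05, as did 1599 of all 12506 genes. DESeq2 called none of the 15 tested window genes on HFD, and 160 of all genes. Averaged over the diets 3 of the 7 were called, against 11.4% of all genes (5.82% higher and 5.57% lower).

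Bckdk held 33.9, 36.9, 38.7 and 40.1 CPM in NCD control libraries and 47.4, 51.5, 49.5 and 47.0 CPM in those with metformin. These groups did not overlap, as in 8.73% of all genes in that direction. The log2 fold change was 0.39 (SE 0.0948, adjusted p 0.0233), with all 4 metformin libraries above the control mean. In HFD control it held 43.1, 37.8, 36.2 and 36.8 CPM, and in HFD metformin 40.8, 43.5, 51.0 and 40.4 CPM, which overlapped. There the log2 fold change was 0.19 (SE 0.0953, adjusted p 0.424). Averaged over diets it was 0.29 (SE 0.0672, adjusted p 0.0153). Leaving out control 1 or 2 or metformin 2 or 3 of NCD ended the NCD call, with adjusted p between 0.0526 and 0.076.

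Kat8, the histone acetyltransferase, measured 7.50, 7.90, 7.21 and 7.10 CPM in NCD control libraries and 8.20, 9.49, 9.73 and 9.38 CPM in those with metformin. HFD control held 7.70, 7.55, 6.77 and 7.14 CPM, and HFD metformin 10.2, 11.0, 9.80 and 7.20 CPM. Groups were apart on NCD and overlapped on HFD through HFD metformin 4. On NCD the log2 fold change was 0.31 (SE 0.117, adjusted p 0.0958) and on HFD 0.39 (SE 0.120, adjusted p 0.193). Averaged over diets Kat8 rose by 0.35 (SE 0.0835, adjusted p 0.0177), a 1.27-fold difference. Without HFD metformin 4 it was called on HFD, at 0.50 (adjusted p 0.0487), and on NCD, at 0.31 (adjusted p 0.0458).

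Zfp646, whose last bases overlap Prss53 on the other strand, moved the opposite way. NCD control libraries held 12.5, 9.50, 10.2 and 12.7 CPM and NCD metformin libraries 8.27, 8.72, 10.1 and 7.62 CPM. On HFD the values were 10.8, 10.9, 13.4 and 16.6 CPM in control and 9.46, 10.1, 7.74 and 11.6 CPM with metformin. The groups overlapped on both diets, although every metformin library was below the control mean of its diet. Zfp646 differed by -0.38 on NCD (SE 0.156, adjusted p 0.127) and by -0.39 on HFD (SE 0.159, adjusted p 0.306). The averaged value was -0.39 (SE 0.111, adjusted p 0.0364), and 11 of 23 alternatives kept that call, with adjusted p from 0.0134 to 0.17. It was lost on leaving out any of 10 single libraries, among them HFD control 4 (-0.33, adjusted p 0.0652). Without HFD control 4 the HFD value was -0.27 (adjusted p 0.612).

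The serine proteases next to the pair did not pass the test. Prss8, the sodium channel activating protease, held 49.4, 40.0, 41.5 and 38.2 CPM in NCD control against 35.4, 34.7, 34.0 and 41.1 CPM in NCD metformin. Its HFD values were 47.4, 44.2, 43.0 and 42.6 CPM in control and 50.2, 40.5, 41.8 and 40.9 CPM with metformin. Both pairs of groups overlapped, with log2 fold changes of -0.22 (95% interval -0.44 to -0.0014, adjusted p 0.177) on NCD and -0.03 (-0.25 to 0.19, adjusted p 0.933) on HFD. Prss36, the relative of Prss53, ranged from 1.11 to 2.46 CPM over all 16 libraries. Its log2 fold changes were -0.14 (-0.62 to 0.34, adjusted p 0.729) and 0.11 (-0.39 to 0.61, adjusted p 0.897).

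Vkorc1, which starts 4647 bases from Prss53 and points the same way, held 6.004, 6.05, 5.78 and 5.58 CPM in NCD control libraries and 5.95, 6.89, 6.82 and 7.08 CPM in those with metformin. On HFD it held 6.97, 7.64, 5.06 and 5.02 CPM in control and 3.77, 6.27, 7.07 and 7.05 CPM with metformin. The groups overlapped on each diet. Log2 fold changes were 0.19 (95% interval -0.17 to 0.55, adjusted p 0.496) and -0.03 (-0.40 to 0.34, adjusted p 0.97). Per count of Vkorc1 there were 0.447 to 0.61 counts of Prss53 in NCD control and 1.95 to 2.06 in NCD metformin. On HFD that ratio was 0.333 to 0.631 in control and 0.948 to 2.43 with metformin.

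Trim72, the muscle membrane repair gene next to Pycard, was near the limit of counting, with 5 to 30 counts in every library but NCD control 3, which held 139. NCD control held 0.693, 0.618, 4.41 and 0.627 CPM and NCD metformin 1.07, 1.003, 0.457 and 0.516 CPM. HFD control held 0.134, 0.306, 0.285 and 0.893 CPM and HFD metformin 0.462, 0.515, 0.582 and 0.945 CPM. Counting 3 reads is worth between 0.077 and 0.347 CPM here, depending on the library. The log2 fold change was -1.07 on NCD (95% interval -2.36 to 0.23, adjusted p 0.272) and 0.94 on HFD (-0.62 to 2.50, adjusted p 0.638). NCD control 3 also held the 4194 CPM of muscle markers, all 18 of which were detected in its group, and without it the NCD value was 0.22 (adjusted p 0.807). Without HFD control 4 the HFD value was 1.42 (adjusted p 0.603). The part of muscle tissue in the other libraries' Trim72 counts was not tested.

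**Figure D2:**
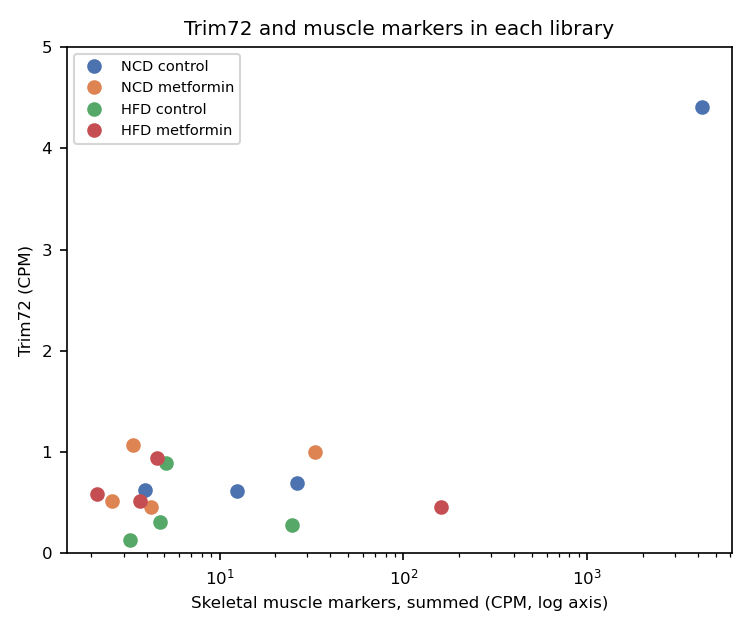
Trim72 in CPM (vertical axis) against the summed CPM of 18 skeletal muscle markers (horizontal log axis), with 1 point per library coloured by group. NCD control 3 lies alone at 4194 CPM of markers and 4.41 CPM of Trim72, and the other 15 libraries stay at or below 1.07 CPM of Trim72.

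The neighbours' 95% intervals show how large a rise their counts allow. Trim72 aside, the highest upper bound of the log2 fold change among the described neighbours was 0.59 on NCD, for Bckdk, and 0.64 on HFD, for Kat8. Hsd3b7, a further gene of the stretch described below, had upper bounds of 0.88 on NCD and 0.66 on HFD. Trim72 had upper bounds of 0.23 on NCD and 2.50 on HFD, so its HFD value is only loosely bounded. The NCD bound rests on NCD control 3, without which the estimate itself was 0.22, so it does not limit a rise on NCD. The difference between the neighbours and the pair is not tested, since the pair was chosen for its values.

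**Figure D3:**
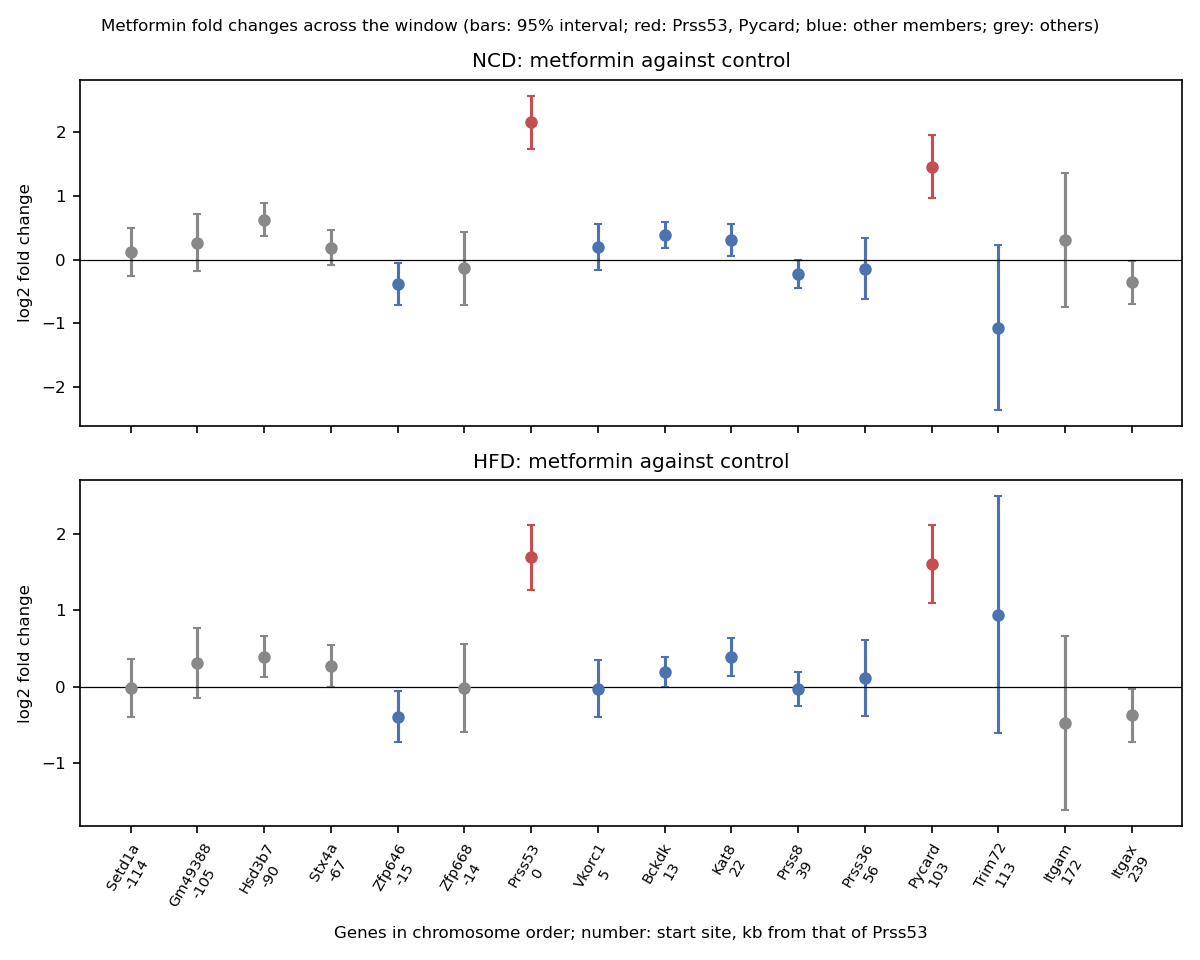
Log2 fold change of metformin against control (vertical axes) on NCD (upper panel) and HFD (lower panel) for 16 of the 17 tested genes of the stretch, in chromosome order, with the distance of each start site from that of Prss53 in kb. Points are edgeR estimates with 95% intervals, in red for Prss53 and Pycard, blue for the other 7 described genes and grey for the rest. The 2 red points stand above every other point drawn on both diets.

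The whole stretch holds 35 annotated genes, of which 21 are in the files and 17 were tested, or 15 without the pair. The 15 include Setd1a and Gm49388. All 3492 words of 31 bases in Gm49388 also occurred in Setd1a, so the estimated counts of these genes are not independent. On NCD 2 of the 15 were called higher and 0 lower, where 4.01% of all genes were called higher and 6.03% lower. The median log2 fold change of the 15 was 0.12, against -0.0029 over all genes. On HFD 0 of the 15 were called, against 0.168% of all genes. There 4 of the 15 and 1599 of all 12506 genes had an unadjusted p under 0.05. The median of the 15 was -0.014 against 0.0036. Averaged over diets 3 were called higher and 1 lower, with a median of -0.017 against -0.0080.

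The second call on NCD, besides Bckdk, was Hsd3b7, an enzyme of bile acid synthesis at chr7:127800604-127803802, at the low-coordinate end of the stretch. Its mean was 5.28 ± 0.351 CPM without and 8.11 ± 1.39 CPM with metformin on NCD (SD, n = 4), a log2 fold change of 0.62 (SE 0.123, adjusted p 0.011). On HFD it was 5.40 ± 0.636 and 7.10 ± 0.223 CPM, or 0.39 (SE 0.126, adjusted p 0.204). Averaged over diets it rose by 0.51 (SE 0.0879, adjusted p 0.0038). Hsd3b7 was called on NCD in all 24 alternatives run, and averaged over diets in all 23. Zfp668, just before Zfp646 in position, had log2 fold changes of -0.14 on NCD (adjusted p 0.782) and -0.01 on HFD (adjusted p 0.991). The leukocyte integrin genes Itgam and Itgax, past Trim72, were not called by edgeR in any contrast. Itgax, a dendritic cell and macrophage marker, differed by -0.36 averaged over diets (SE 0.115, adjusted p 0.0506), just outside the threshold. It was called in 7 of 23 alternatives, among them DESeq2 (-0.36, adjusted p 0.0287), library size alone (-0.44, adjusted p 0.0301) and the term for title numbers (-0.40, adjusted p 0.0327). The other 4 left out NCD metformin 3, HFD control 1, HFD control 2 or HFD metformin 3.

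None of these genes passed the test for diet. On control treatment 0 of the 15 window genes were called, against 0.0640% of all genes. An unadjusted p under 0.05 was held by 1 of the 15 and by 881 of all 12506 genes. With metformin again 0 of 15 were called, against 2.36% of all genes. There 1 of the 15 and 2407 of all 12506 genes had an unadjusted p under 0.05. The diet and metformin contrasts share groups and are not independent. Prss53 was 3.0 ± 0.297 CPM in NCD control and 2.93 ± 0.886 CPM in HFD control (SD, n = 4), a log2 difference of 0.01 (95% interval -0.42 to 0.44, adjusted p 1). Among metformin libraries the difference was -0.44 (-0.83 to -0.045, adjusted p 0.202), with all 4 HFD libraries below the NCD mean.

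Pycard was lower on HFD without metformin, at 3.76 ± 1.05 against 5.53 ± 1.28 CPM (SD, n = 4), and these groups did not overlap, as in 2.25% of all genes in that direction. The log2 difference of -0.51 (95% interval -1.02 to -0.00039) did not pass the test (adjusted p 0.708), and was -0.38 (adjusted p 0.919) without HFD control 4. With metformin it was -0.36 (-0.84 to 0.11, adjusted p 0.405). Trim72 differed by -2.25 without metformin (adjusted p 0.388), and by -0.96 (adjusted p 0.81) without NCD control 3.

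The metformin difference itself was compared between diets by the interaction term. No gene was called by edgeR (0 of 12506, of which 1243 had an unadjusted p under 0.05). DESeq2 called 22 of all genes. Of the window genes without the pair 0 had an unadjusted p under 0.05. DESeq2 called none of these 15. For Prss53 the HFD effect minus the NCD effect was -0.45 (95% interval -1.04 to 0.13, adjusted p 0.604). For Pycard it was 0.15 (-0.55 to 0.84, adjusted p 0.925), for Bckdk -0.20 (-0.48 to 0.089, adjusted p 0.659), and for Kat8 0.08 (-0.28 to 0.43, adjusted p 0.924).

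TPM, which corrects for transcript length, allows levels to be set between genes. Ordered by mean TPM in NCD control, Prss8 stood first at 36.6 ± 5.81, followed by Bckdk at 17.9 ± 1.62, Vkorc1 at 13.0 ± 0.702, Pycard at 7.15 ± 1.26 and Kat8 at 2.36 ± 0.0849 (SD, n = 4). Libraries of neighbours in that order did not overlap. Zfp646 at 0.768 ± 0.135, Prss53 at 0.746 ± 0.0812, Prss36 at 0.692 ± 0.125 and Trim72 at 0.476 ± 0.568 overlapped and have no order. In NCD metformin Pycard reached 18.1 ± 4.29 TPM, overlapping Bckdk at 20.7 ± 0.719 and Vkorc1 at 13.8 ± 1.67. Prss53 reached 2.93 ± 0.169 TPM there, overlapping Kat8 at 2.68 ± 0.212. Pycard was the more abundant of the pair in both groups.

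Isoform use was tested where a second transcript held at least 5% of a gene's counts and the gene averaged at least 50 counts. This left Vkorc1, Bckdk and Zfp646. Prss36, with 66.3% of its counts in its leading transcript and 19.5% in its second, fell below that mean. The share of the leading transcript differed between metformin and control, within diet, by 0.613 percentage points for Vkorc1, 0.703 for Bckdk and 2.31 for Zfp646. Exact two-sided permutation tests over 4900 arrangements gave p = 0.889, 0.27 and 0.618 (adjusted over 3 genes 0.889, 0.81 and 0.889), where the smallest p possible was 0.000408. None passed the threshold. In NCD control the leading share was 90.5 ± 2.03% for Vkorc1, 90.8 ± 1.13% for Bckdk and 94.3 ± 5.86% for Zfp646 (SD, n = 4).

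Over all 16 libraries the log2 CPM of Prss53 and Pycard had a Pearson r of 0.935, a description, since both were chosen for the treatment difference that they share. Within the 8 control libraries r was 0.688 (exact permutation p 0.113, adjusted over 8 relations 0.129) and Spearman's rho 0.0714 (exact permutation p 0.882, adjusted 0.882). Within the 8 metformin libraries r was 0.644 (exact permutation p 0.0826, adjusted 0.129) and rho 0.619 (exact permutation p 0.115, adjusted 0.264). Each set of 8 pools both diets, and the permutation did not keep the diets apart. Differences between diets therefore enter these r, rho and p. Without the 2 libraries farthest from the median of Prss53, r was -0.191 in controls and -0.0785 with metformin. The libraries left out were HFD control 2 and 4 and HFD metformin 1 and 4. Leaving out the farthest values narrows the range of Prss53, which can lower r by itself. The step therefore cannot show whether the relation rested on those libraries.

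**Figure D4:**
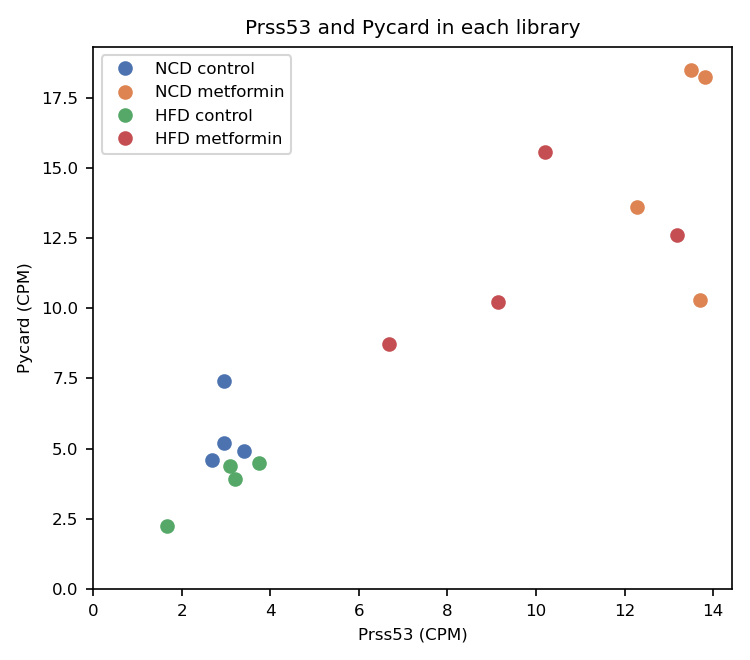
Pycard against Prss53, both in CPM from 0, with 1 point per library coloured by group. The 8 control libraries lie at or below 3.75 CPM of Prss53 and 7.42 CPM of Pycard, and the 8 metformin libraries at or above 6.69 and 8.72 CPM.

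Among the 5 genes most like Prss53 over the 16 libraries, by Pearson r of log2 CPM, were Ptgr1 (0.960), Galk2 (0.955), Samm50 (0.955) and Prelid1 (0.941), and none of these 4 lies on chromosome 7. Ptgr1 encodes a prostaglandin reductase, Galk2 a kinase of N-acetylgalactosamine, and Samm50 a mitochondrial outer membrane assembly protein. Those most like Pycard were Ndufs7 (0.960), Galk2 (0.956), Mvb12a (0.953), Sdhb (0.949) and Clybl (0.942). Ndufs7 and Sdhb are subunits of respiratory complexes I and II. Of the neighbours, Bckdk had an r of 0.845 with Prss53, Kat8 one of 0.827, Vkorc1 one of 0.246 and Zfp646 one of -0.767. With Pycard the r was 0.809 for Bckdk, 0.784 for Kat8 and 0.291 for Vkorc1. For Zfp646 it was -0.892, which ranked 12501 of 12505 genes. By r with Pycard, Bckdk ranked 341, Kat8 464 and Vkorc1 3632. By r with Prss53, Bckdk ranked 154, Kat8 225, Vkorc1 4107 and Zfp646 12278. All these r include the differences between groups and are descriptions. For deviations from group means, r with Prss53 was 0.371 for Bckdk, 0.562 for Kat8, 0.271 for Vkorc1 and -0.544 for Zfp646. With Pycard it was 0.448, 0.393, 0.403 and -0.866 in that order.

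Libraries also differed in how levels depended on coding length. The slope of log2 level on coding length, per doubling, was 0.00447 to 0.0357 in NCD control and -0.0947 to -0.0414 in NCD metformin. It was 0.00843 to 0.164 in HFD control and -0.0521 to 0.0452 in HFD metformin, and the highest value, 0.164, was that of HFD control 4. Zfp646 has the longest coding sequence of the 9 genes, 5315 bases, and Pycard (582) and Vkorc1 (468.1) the shortest. The median was 1377 over genes above a minimum mean count, a set chosen otherwise than the tested genes. With the trend on length and GC content removed from each library, Prss53 differed by 2.14 on NCD and 1.72 on HFD, and Pycard by 1.28 and 1.51. Kat8 averaged over diets remained called at 0.34 (adjusted p 0.0173), and Bckdk on NCD at 0.30 (adjusted p 0.0497). Zfp646 was at -0.26 (adjusted p 0.0642) and no longer called, and Vkorc1 on NCD changed sign to -0.03.

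**Figure D5:**
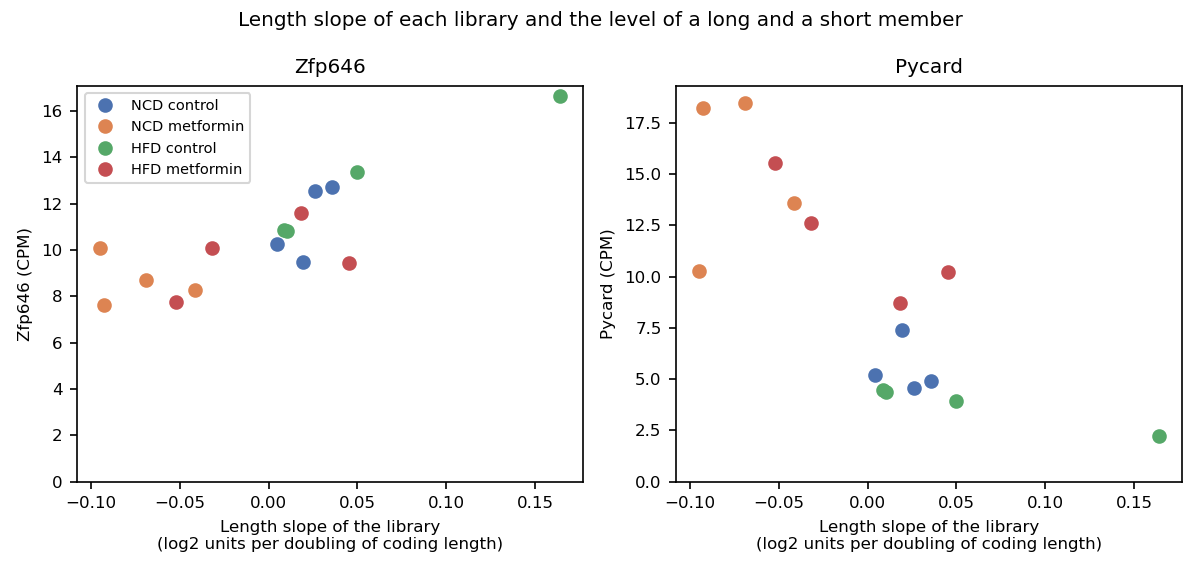
Level in CPM from 0 of Zfp646 (left) and Pycard (right) against the length slope of each library, in log2 units per doubling of coding length, with 1 point per library coloured by group. NCD metformin libraries lie at slopes from -0.0947 to -0.0414, and HFD control 4 lies apart at 0.164 with the highest Zfp646 and the lowest Pycard.

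Within the 8 control libraries Zfp646 followed this slope with r = 0.875 (exact permutation p 0.00223, adjusted over 8 relations 0.0178), rho 0.833 (exact permutation p 0.0154, adjusted 0.0616), and r = 0.691 without the 2 libraries farthest from the median slope. With metformin r was 0.496 (exact permutation p 0.217, adjusted 0.217) and rho 0.333 (exact permutation p 0.428, adjusted 0.571), and r was 0.0878 without 2 libraries. Since the slope is fitted on coding length over all genes, a long gene such as Zfp646 can follow it by construction. Other genes of like length were not compared. Prss53 had r = -0.871 in controls (exact permutation p 0.0634, adjusted 0.127) and -0.80 with metformin (exact permutation p 0.0183, adjusted 0.0732). Without the 2 farthest libraries these were -0.103 and -0.472. For Pycard r was -0.839 in controls (exact permutation p 0.033, adjusted 0.088) and -0.63 with metformin (exact permutation p 0.0985, adjusted 0.129), and 0.0893 and -0.0826 without those libraries. The Spearman values for Prss53 were -0.238 and -0.857 (exact permutation p 0.582 and 0.0107, adjusted 0.665 and 0.0616), and for Pycard -0.548 and -0.595 (exact permutation p 0.171 and 0.132, adjusted 0.274 and 0.264). Leaving out the farthest values narrows the range of the slope, which can lower r by itself, so it cannot show whether a relation rested on them. In controls the libraries left out were HFD control 3 and 4, and with metformin HFD metformin 1 and 4. For Prss53 with metformin a weaker negative r remained without those 2 libraries. No relation of Prss53 or Pycard with the slope passed after adjustment. Here too each set of 8 libraries pools both diets, permuted together, so differences between diets enter all r, rho and p with the slope, those of Zfp646 included.

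The pathway partners of each gene were read from lists. Over all genes, 4.01% were called higher and 6.03% lower on NCD, and 5.82% higher and 5.57% lower averaged over diets, and each count below is to be read against these shares. Of 17 tested inflammasome and pyroptosis genes, the partners of Pycard, 0 were called higher and 2 lower on NCD. Averaged over diets 0 were higher and 4 lower, with a median of -0.27 against -0.0080 over all genes. The 4 were the cytokines Il1a (-1.44, SE 0.375, adjusted p 0.0255) and Il1b (-1.12, SE 0.337, adjusted p 0.042) and the sensors Naip2 (-0.68, SE 0.164, adjusted p 0.0174) and Naip5 (-0.73, SE 0.218, adjusted p 0.0406). On NCD the 2 were Naip2 (-0.83, adjusted p 0.0352) and Casp4 (-0.51, adjusted p 0.0472), a caspase that senses lipopolysaccharide, which is named after its value was seen.

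Macrophage markers, whose cells are known to carry Pycard, summed to 139.5 to 194 CPM without metformin on NCD and 103.85 to 128.98 CPM in NCD metformin. On HFD they summed to 132.9 to 163.9 CPM in control and 133.2 to 184.1 CPM with metformin. Of 15 tested, 0 were higher and 1 lower on NCD, against 4.01% and 6.03% of all genes, and none was at 0 in all libraries of a group. Neutrophil and other leukocyte markers summed to 13.89 to 17.33 and 10.46 to 13.21 CPM on NCD and to 13.52 to 21.66 and 10.9 to 14.76 CPM on HFD, with Ly6g at 0 throughout. Itgax of the stretch is in this list, with means of 6.94 CPM in NCD control and 5.435 CPM in NCD metformin. The leukocyte sum is thus not separate from the Itgax values given above. Itgam of the stretch is in the macrophage list. Summed macrophage markers were therefore lower with metformin on NCD and overlapped on HFD, and their part in the Pycard difference was not tested.

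Among 17 tested epithelial serine proteases, their inhibitors and sodium channel genes, 1 was higher and 1 lower on NCD, near the shares of 4.01% and 6.03% over all genes. These were Scnn1a, a subunit of the channel that Prss8 activates (0.72, SE 0.212, adjusted p 0.0432), and Nedd4l, the ligase that removes the channel (-0.68, SE 0.186, adjusted p 0.0332). Averaged over diets only the protease Tmprss4 passed, at -0.72 (SE 0.167, adjusted p 0.0144), with a list median of -0.028. Of 12 tested genes of the vitamin K cycle and carboxylated proteins, around Vkorc1, 0 were higher and 2 lower averaged over diets. They were Prrg4 (-0.80, SE 0.228, adjusted p 0.0346) and the calcification inhibitor Mgp (-0.84, SE 0.241, adjusted p 0.0363), and the list median was -0.037.

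Genes of branched-chain amino acid breakdown, around Bckdk, were the list of these 6 with most members called higher. Of 17 tested, 3 were higher and 0 lower on NCD (4.01% and 6.03% of all genes). Averaged over diets 5 were higher and 0 lower (5.82% and 5.57% of all genes), and the medians were 0.20 and 0.18. Averaged over diets they were the mitochondrial aminotransferase Bcat2 (0.96, SE 0.131, adjusted p 0.000642), the carboxylase subunits Mccc2 (0.51, SE 0.091, adjusted p 0.00421) and Pccb (0.25, SE 0.063, adjusted p 0.0206), Bckdhb (0.41, SE 0.112, adjusted p 0.0308), a subunit of the enzyme that Bckdk inhibits, and Auh (0.28, SE 0.0832, adjusted p 0.0406), named after its value was seen. On NCD the 3 were Bcat2, Mccc2 and Pccb. For the complexes of Kat8 the list of 16 tested genes had 0 higher and 2 lower on NCD, Kat6a (-0.77, SE 0.156, adjusted p 0.0126), a related acetyltransferase, and Phf20 (-0.48, SE 0.134, adjusted p 0.0347), a subunit of the NSL complex. Of 16 tested membrane repair genes, the partners of Trim72, averaged over diets 2 were higher, Anxa5 (0.32, adjusted p 0.0416) and Capn1 (0.26, adjusted p 0.0482), and 1 lower, the muscle calpain Capn3 (-0.75, adjusted p 0.0175). Capn3 was highest, at 4.19 CPM, in NCD control 3, the library with muscle markers, and without that library it differed by -0.59 averaged over diets (adjusted p 0.0222) and by -0.61 on NCD (adjusted p 0.083, against 0.0297 with it). On HFD none of these 6 lists had a called gene for metformin, where 0.168% of all genes were called.

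Many of these calls depended on single libraries, and leaving a library out also leaves fewer to test. Of 11 list calls on NCD, 1 held with each of the 16 libraries left out in turn, that of Bcat2. Without NCD control 3, 5 of the 11 held, and the 6 lost were Casp4, Nedd4l, Scnn1a, Prrg4, Phf20 and Capn3, with adjusted p from 0.0551 to 0.101. Averaged over diets 7 of 16 calls held throughout, those of Il1a, Naip2, Tmprss4, Kat6a, Mccc2, Bcat2 and Capn3. Without HFD control 4, 9 of these 16 held, and without NCD control 3, 11 did.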

How the data were processed

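RNA of 16 whole mammary gland libraries was quantified by the authors per transcript. Each deposited file holds an estimated count and a TPM value per transcript, per the file headers. The submitters' processing notes name Salmon 1.3.0, GRCm38.p6 and DESeq2 1.28.1 without a role, and no source used here gives the options for strand and bias. Listed lengths were within 3 bases of the coding length for 56979 of 57244 coding transcripts, so reads from untranslated regions do not enter the values.

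Of 58204 transcripts, 57452 matched GENCODE M21 and were summed to 22196 genes and rounded to whole numbers. The other 752 held 0.165 to 0.218% of a library's counts and were left out. Totals per library ranged from 8649316 to 39156617 counts, with a median of 28944266. No pair of libraries looked like 1 library deposited again (lowest chi-square per degree of freedom 13.92 over 120 pairs). Counting floors of 3 counts cover counting error only.

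The two-sided test was the quasi-likelihood test of edgeR 4.0.16 in R 4.3.3. It fitted 4 group means to all 16 libraries, with filterByExpr and TMM scaling. This left 12506 genes and 12 residual degrees of freedom, and p-values were Benjamini-Hochberg adjusted over all of them. The fit was tested on simulated data. CPM are TMM scaled. Leading transcript shares were compared by exact permutation within diet. Alternatives were other scalings, no filter, DESeq2 1.42.0, fewer groups in the fit, counts rebuilt from TPM, a wider window, a term for the gap in title numbers, each library left out and, chosen after seeing the data, removal of the length and GC trend and list calls with each library left out. Named genes are the 9 genes, window genes called or next to them, up to 4 genes of lowest averaged metformin p per list, and the 5 genes of highest r with Prss53 and with Pycard, of which 2 genes are not reported here. The genes, lists and tests were chosen with earlier results of these data known. Promoter sequences are from RefSeq, on GRCm38.p6.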

Additional observations from a re-analysis of the deposited data

Results flagged for a closer look

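Among 36 groups of 4 libraries (9 genes in 4 groups), 2 held a library far from the other 3 by Dixon's test, where chance gives about 1 in 20. Trim72 was at 4.41 CPM in NCD control 3, against 0.618 to 0.693 CPM in the other NCD control libraries, and the same library held 4194 CPM of skeletal muscle markers. Prss8 was at 50.2 CPM in HFD metformin 1, against 40.5 to 41.8 CPM in the other HFD metformin libraries. That library was the second shallowest.

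Trim72 was below the NCD control mean in all 4 NCD metformin libraries and above the HFD control mean in all 4 HFD metformin libraries. The HFD effect minus the NCD effect was 2.01 on the log2 scale (95% interval -0.015 to 4.03), which did not pass the interaction test (edgeR adjusted p 0.499). Without NCD control 3 it was 0.71 (adjusted p 0.766).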

How the results depend on the processing

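No paired analysis was possible because replicate numbers follow accession order alone and the labels pair no libraries. There were 1272 alternative values of the 54 fold changes of the 9 genes. Of these, 1198 were counted as unchanged, 17 lost a call, 3 gained one and 54 changed sign. Unchanged means the same direction and side of the threshold, except for the metformin difference of Prss53 and Pycard, where only direction was compared. Since that difference chose the region, its p-values are not given. Prss53 and Pycard stayed positive for metformin in every alternative run (1.51 to 2.21 and 1.28 to 1.73). Kat8 and Bckdk averaged over diets were called in all 23.

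Window counts moved for metformin on NCD to 1 with counts rebuilt from TPM and to 1 to 3 with a library left out. For metformin on HFD they moved to 0 to 1 with a library left out, through Kat8 without HFD metformin 4. For diet with metformin the count was 1 by library size alone, where Bckdk was lower (-0.33, adjusted p 0.0387). Averaged over diets the count was 3 to 6 with a library left out. The cause was not tested.

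Signs changed only where a value had not passed the test. With the length and GC trend removed, Vkorc1 was at -0.033 on NCD and -0.091 averaged. By library size alone, the diet difference without metformin was -0.16 for Prss53, -0.085 for Vkorc1, -0.12 for Bckdk and -0.10 for Prss8, and with metformin -0.13 for Kat8. With the title number term, Trim72 averaged was 0.011, the diet difference without metformin was -0.032 for Prss53 and 0.0027 for Prss36, and the Zfp646 interaction was 0.021. With counts rebuilt from TPM, Vkorc1 on HFD was 0.022, the diet difference of Prss53 without metformin -0.048, and the interaction 0.034 for Zfp646 and -0.043 for Prss8.

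With a library left out, metformin values ran from -1.33 to 0.22 for Trim72 on NCD and -0.24 to 0.57 averaged, -0.12 to 0.13 for Vkorc1 on HFD, -0.11 to 0.0011 for Prss8 on HFD and -0.098 to 0.050 for Prss36 averaged. Diet differences without metformin ran from -0.11 to 0.15 for Prss53, -0.028 to 0.18 for Vkorc1, -0.016 to 0.072 for Bckdk, -0.055 to 0.012 for Kat8 and -0.16 to 0.086 for Prss36. With metformin they ran from -0.22 to 0.022 for Vkorc1 and -0.032 to 0.17 for Kat8. Interactions ran from -0.12 to 0.11 for Zfp646, -0.0066 to 0.19 for Kat8 and -0.030 to 0.27 for Pycard.

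The leading transcript share of Vkorc1 differed by -1.29 points by TPM, -0.868 on NCD alone and -2.93 to 2.73 with a library left out. For Bckdk it was -0.0224 on HFD alone and 0.434 to 1.05 with a library left out, and for Zfp646 -1.04 and -0.164 to 4.81. HFD control 4 held 15 Prss53 and 20 Pycard counts, which limits the precision of its values for the pair.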
